A study of Mus musculus with 12 samples.

Results

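This account is about the promoters of fetal mouse lung epithelium that carried the active mark H3K4me3 and no peak of PRDM16 or PRDM3. Of 10250 H3K4me3 stretches at promoters, 351 were of this kind (3.42%), and the other 9899 overlapped at least 1 PRDM peak and served as the comparison. A stretch was a run of bases covered by peaks in at least 2 of the 3 H3K4me3 libraries, on chromosomes 1 to 19, under 4000 bases long and at most 1 kb from either end of an annotated protein-coding gene. It was called PRDM-free when it shared no base with any peak of the 3 PRDM lists (PRDM16 replicates 1 and 2, PRDM3 replicate 1). Members were thus chosen by 2 measured values, H3K4me3 peaks and the absence of PRDM peaks, and neither is a result.

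The chromatin came from wild-type C57Bl6 mice at the E17.5 stage of gestation, from lung cells enriched with magnetic beads for EpCAM, a surface protein of epithelial cells. All samples share this genotype, age and cell population, and no treatment or mutant entered the series described here. CUT&RUN maps a protein by letting its antibody bring a nuclease to the chromatin, which releases the DNA around the bound site, and each reaction used 100000 cells. Peak lists of 9 samples were used (3 NKX2-1, 3 H3K4me3, 2 PRDM16 and 1 PRDM3), and 3 IgG samples were not analysed here. One PRDM16 antibody was raised in rabbit (replicate 1) and the other in sheep (replicate 2). Nothing in the labels says that replicates came from separate animals, so tests between libraries measure the spread between these libraries only.

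H3K4me3, trimethylated lysine 4 of histone H3, is deposited around the starts of transcribed genes, most strongly over CpG islands. NKX2-1 is the homeodomain factor that specifies lung epithelium and drives genes of alveolar type 1 and type 2 cells. PRDM16 and PRDM3 (the product of Mecom) are related zinc-finger proteins of the PR-domain family, which bind DNA and recruit chromatin-modifying complexes.

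The labelled cell type was checked with marker genes. H3K4me3 stretches of any length lay at the gene ends of 6 of 6 epithelial markers (among them Epcam, Cdh1 and Krt8) and 6 of 6 lung epithelial markers (among them Nkx2-1, Sftpc and Sftpb). They lay at 2 of 5 mesenchymal markers (Col1a1 and Col1a2) and 1 of 4 endothelial markers (Kdr). Pecam1, Cdh5, Ptprc and Pdgfra had none. The part of other cell types in the results below was not tested.

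Sequences of 9 of these promoters are shown first, chosen as examples of the groups described below. Each is the 250 bases before the RefSeq start of the gene, in build GRCm38.p6, written 5′ to 3′ on the gene's strand. Capitals mark exact matches, on either strand, to the TATA box (TATAAA), the CCAAT box, the GC box (GGGCGG), a sequence recognised by ETS factors (CCGGAAG), the core of the cAMP response element (TGACG) and the core recognised by NKX2 factors (CACTT). A match is a description of the letters, not a bound site. Zfp966 (chr2:175931101-175931350, minus strand), Gm14440 (chr2:175274875-175275124, plus strand) and Gm14308 (chr2:176636320-176636569, minus strand) stand for a zinc finger gene cluster in which many promoters share long runs of sequence.
Zfp966: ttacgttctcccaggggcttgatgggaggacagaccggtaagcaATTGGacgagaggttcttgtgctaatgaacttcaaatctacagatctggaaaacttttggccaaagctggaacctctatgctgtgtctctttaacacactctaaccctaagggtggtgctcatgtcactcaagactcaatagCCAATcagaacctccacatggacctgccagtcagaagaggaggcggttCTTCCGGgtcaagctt
Gm14440: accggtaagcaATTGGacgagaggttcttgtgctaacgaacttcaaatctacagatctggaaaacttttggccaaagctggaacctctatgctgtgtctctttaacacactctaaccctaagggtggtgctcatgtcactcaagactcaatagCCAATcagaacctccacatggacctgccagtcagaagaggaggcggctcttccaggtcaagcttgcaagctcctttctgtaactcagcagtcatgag
Gm14308: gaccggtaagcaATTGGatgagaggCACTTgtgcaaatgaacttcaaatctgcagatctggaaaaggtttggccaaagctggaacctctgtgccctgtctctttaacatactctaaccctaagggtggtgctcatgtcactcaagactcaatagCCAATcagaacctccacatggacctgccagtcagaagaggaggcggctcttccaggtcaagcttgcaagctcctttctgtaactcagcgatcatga

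Prr36 (chr8:4217313-4217562, minus strand), Zmpste24 (chr4:121098211-121098460, minus strand) and Nr4a2 (chr2:57124004-57124253, minus strand) had the best-ranked NKX2-1 peaks among the PRDM-free promoters. Their windows held 10, 12 and 44 CpG dinucleotides.
Prr36: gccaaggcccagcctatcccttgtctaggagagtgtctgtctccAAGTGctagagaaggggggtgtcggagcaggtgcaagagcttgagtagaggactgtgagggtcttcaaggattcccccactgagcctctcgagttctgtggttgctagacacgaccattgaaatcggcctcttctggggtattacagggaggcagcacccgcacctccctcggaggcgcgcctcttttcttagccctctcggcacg
Zmpste24: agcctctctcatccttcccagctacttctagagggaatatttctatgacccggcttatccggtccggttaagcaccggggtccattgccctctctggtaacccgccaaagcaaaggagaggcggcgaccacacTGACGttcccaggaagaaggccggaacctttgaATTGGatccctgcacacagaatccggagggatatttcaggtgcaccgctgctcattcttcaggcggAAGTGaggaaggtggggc
Nr4a2: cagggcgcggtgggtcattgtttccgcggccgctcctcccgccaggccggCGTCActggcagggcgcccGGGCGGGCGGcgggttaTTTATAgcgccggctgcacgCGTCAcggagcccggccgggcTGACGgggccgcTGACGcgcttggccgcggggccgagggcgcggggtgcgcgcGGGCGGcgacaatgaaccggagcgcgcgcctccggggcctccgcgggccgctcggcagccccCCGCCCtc

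Zfp780b (chr7:27979158-27979407, minus strand) and Pola2 (chr19:5964207-5964456, minus strand) had strong H3K4me3 and no NKX2-1 peak, and Sftpa1 (chr14:41131538-41131787, plus strand) is the surfactant gene of the set. The Sftpa1 window held 3 CpG dinucleotides, a TATA box and 5 matches to CACTT.
Zfp780b: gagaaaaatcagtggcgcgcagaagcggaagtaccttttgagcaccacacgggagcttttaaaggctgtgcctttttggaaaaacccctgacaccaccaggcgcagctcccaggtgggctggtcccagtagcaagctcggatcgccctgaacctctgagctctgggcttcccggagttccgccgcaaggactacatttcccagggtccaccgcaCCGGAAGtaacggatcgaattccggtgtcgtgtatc
Pola2: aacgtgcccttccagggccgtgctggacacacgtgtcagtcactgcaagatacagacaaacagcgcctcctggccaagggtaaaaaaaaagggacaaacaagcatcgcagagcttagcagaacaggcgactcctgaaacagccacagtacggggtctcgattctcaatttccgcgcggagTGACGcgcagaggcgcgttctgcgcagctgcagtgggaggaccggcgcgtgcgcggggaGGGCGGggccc
Sftpa1: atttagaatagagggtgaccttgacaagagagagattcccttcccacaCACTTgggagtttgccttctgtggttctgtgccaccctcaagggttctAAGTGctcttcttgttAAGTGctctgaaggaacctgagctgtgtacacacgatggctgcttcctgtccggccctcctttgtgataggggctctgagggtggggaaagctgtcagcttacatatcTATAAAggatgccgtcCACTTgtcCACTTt

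NKX2-1 was found at the PRDM-free promoters far less often than at the promoters with a PRDM peak. In NKX2-1 replicate 1, 126 of 351 PRDM-free promoters had a peak (35.9%), against 93.0% of the comparison and 91% of all promoter stretches. In replicate 2 the count was 53 (15.1%), against 62.6% of the comparison and 61% of all. In replicate 3 it was 74 (21.1%), against 73.6% of the comparison and 71.8% of all. Every library gave the lower share to the PRDM-free promoters, and the highest of their 3 shares lay under the lowest of the comparison.

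The mean difference was −52.4 ± 4.79 percentage points (SD, n = 3 libraries). An exact two-sided sign-flip permutation test over the 3 libraries gave p = 0.25, the smallest value that 3 libraries allow, so this design cannot reach 0.05. The 3 replicates share the same stretches and carry peak names of different series, the first in replicate 1 and another in replicates 2 and 3. The difference was −57.1 points in the first series, which holds 1 NKX2-1 library and also the PRDM lists, and −50.0 points in the second.

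**Figure D1:**
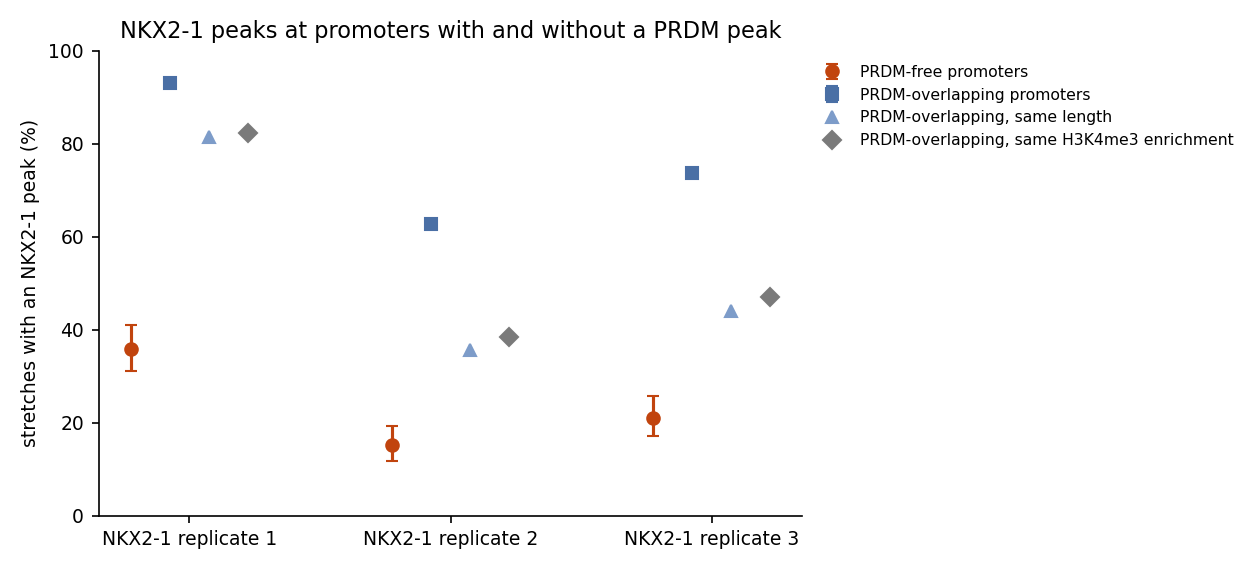
Share of stretches with an NKX2-1 peak (vertical axis, percent) in each NKX2-1 library, for the 351 PRDM-free promoters and the 9899 PRDM-overlapping promoters. The latter are also shown weighted to the length classes or H3K4me3 enrichment classes of the former. Bars are Wilson 95% intervals over stretches (counting error only, smaller than the symbol for the comparison). The PRDM-free share is the lowest of the 4 in each library.

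Counted over lists, 179 of the 351 PRDM-free promoters had no NKX2-1 peak at all (51.0%), while 4.06% of the comparison and 5.67% of all promoter stretches had none. A peak in exactly 1 list was present at 110, in exactly 2 lists at 43 and in all 3 lists at 19 (5.41%). In the comparison 53.3% had a peak in all 3 lists, and among all promoter stretches 51.7%. An NKX2-1 region, meaning bases covered in at least 2 of the 3 lists, lay over 52 PRDM-free promoters, or 14.8% (Wilson 95% interval 11.5 to 18.9%, counting error only). It lay over 77.5% of the comparison and 75.3% of all. The value moved with the NKX2-1 libraries used: with 2 libraries in place of 3, and both required, it was 5.70% without replicate 1, 9.40% without replicate 2 and 8.26% without replicate 3.

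The NKX2-1 peaks that were present were weaker in each library. Where a peak was present, the median of the authors' fold enrichment over background was 3.61, 3.26 and 3.20 in replicates 1, 2 and 3 at PRDM-free promoters, and 6.11, 3.64 and 4.00 in the comparison. Counting only peaks whose −log10 q reached 5, 4.56% of the PRDM-free promoters had an NKX2-1 peak in replicate 1, and none had one in replicates 2 and 3. In the comparison the shares were 59.8%, 4.83% and 8.25%. Where a peak was present, q was under 0.05 for 71.4%, 32.1% and 33.8% of the PRDM-free promoters in replicates 1, 2 and 3, and for 95.5%, 48.7% and 60.4% of the comparison.

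Part of the difference went with the size of the H3K4me3 stretch. Weighted to the lengths of the PRDM-free promoters in 5 length classes, the comparison had an NKX2-1 peak at 81.5%, 35.6% and 43.9% of stretches in replicates 1, 2 and 3. The difference was then −29.6 ± 13.9 points (SD, n = 3, exact sign-flip p = 0.25, lower in 3 of 3 libraries). Lengths still differed within the classes, so length was not fully taken out. The shortest class, 24 to 1005 bases, held 258 of the PRDM-free promoters. Of its stretches under 250 bases, 71 were PRDM-free and 120 were in the comparison. From 750 to under 1000 bases the counts were 48 and 781. Weighted to the H3K4me3 enrichment of the PRDM-free promoters in the same way, the NKX2-1 difference was −31.8 ± 12.6 points (exact sign-flip p = 0.25, lower in 3 of 3).

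The PRDM-free promoters were short and weakly marked. Their median length was 582 bases (quartiles 284 and 1052.5, range 28 to 2488), against 1624 bases in the comparison. Under 500 bases lay 155 of them (44.2%), against 4.65% of the comparison, and 93 were 1000 bases or longer (26.5%, against 82.1%). Put in 5 classes of about equal number by length, promoter stretches were PRDM-free in 12.6% of the shortest class and then in 3.17%, 1.17%, 0.146% and 0.0488%. None of the 399 stretches of 4000 bases or more near a gene end was PRDM-free. A longer stretch has more bases on which a PRDM peak can fall, and its part in these shares was not tested.

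H3K4me3 enrichment was lower in every library, which is a description with no test, since the same H3K4me3 lists defined the stretches. The median fold enrichment of the H3K4me3 peaks was 9.28, 10.9 and 9.62 in replicates 1, 2 and 3 at PRDM-free promoters and 18.98, 37.1 and 30.9 in the comparison. On the log2 scale the difference of medians was −1.50 ± 0.40 (SD, n = 3). The groups of 3 library medians did not overlap. The difference was −0.58 ± 0.05 on the log2 scale when the comparison was weighted to the same 5 length classes, within which lengths still differed. By mean rank of H3K4me3 enrichment, 12.4% of the weakest of 5 classes was PRDM-free and 0.0488% of the strongest.

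**Figure D2:**
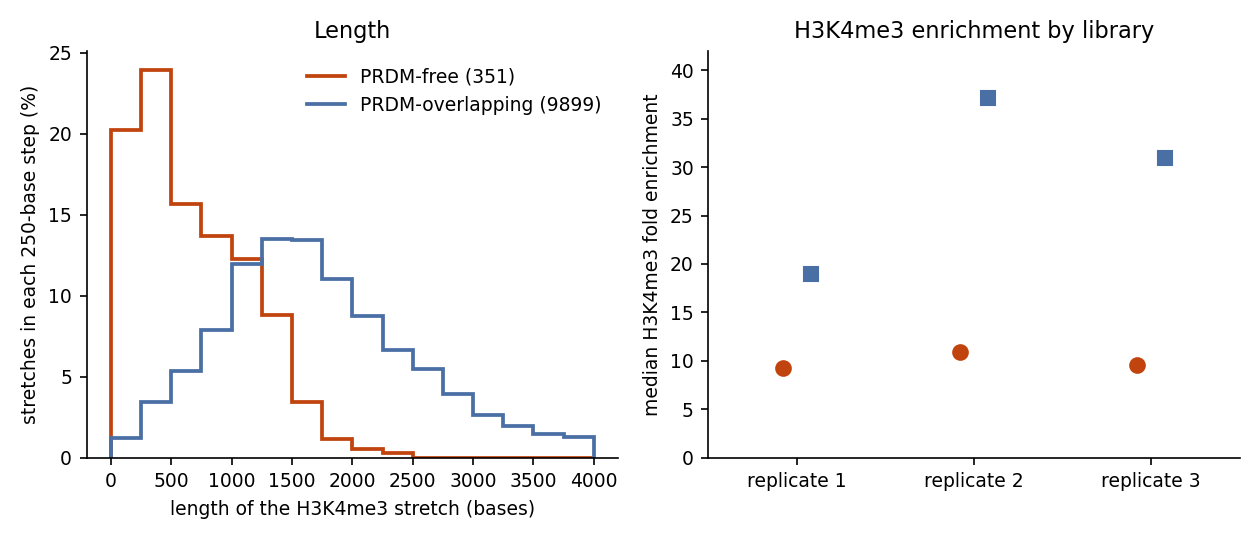
Left, length of the H3K4me3 stretch (horizontal axis, bases) against the percent of stretches in each step of 250 bases for PRDM-free and PRDM-overlapping promoters. Right, median H3K4me3 fold enrichment of both sets in each H3K4me3 library (round points PRDM-free, square points PRDM-overlapping), with all 3 PRDM-free medians between 9.28 and 10.9.

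The libraries themselves overlapped less on these promoters. H3K4me3 was present in all 3 lists at 211 of 351 (60.1%), against 96.2% of the comparison. Replicate 1 held 94.9% of them, replicate 2 held 91.2% and replicate 3 held 74.1%.

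Many of the stretches lay beside an annotated start and not over it. An annotated start lay inside the stretch at 154 of 351 (43.9%), against 75.6% of the comparison. Another 99 lay beside a start (28.2%, against 4.14%), 24 at the far end of a gene only (6.84%, against 1.23%), and for 74 the strand of the gene was not known. Within 1 kb of another H3K4me3 stretch lay 64 (18.2%, against 4.70%). Stretches beside a start had a median length of 281 bases and an NKX2-1 region at 4.04%, while those over a start had a median of 939 bases and an NKX2-1 region at 24.7%. Gene ends of 2 or more genes lay within 1 kb of 28 PRDM-free promoters (7.98%, against 17.4%).

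Distances to the nearest PRDM peak have no baseline here. The PRDM lists were dense, with 108677, 77421 and 51128 peaks on chromosomes 1 to 19 (PRDM16 replicates 1 and 2, PRDM3 replicate 1). Distances from places outside the promoter set were not measured, so closeness is not read as a trait of these promoters. The median distance to the nearest PRDM peak was 1615 bases, and a PRDM peak lay within 200 bases of 68 members, within 500 bases of 113, within 1000 bases of 155 and within 10000 bases of 282. The farthest, at Gm14296, lay 96390 bases from one. The PRDM lists reach down to weak peaks: 2821 comparison stretches had no PRDM peak whose −log10 q reached 5, and 437 had none at q under 0.05. With only those stronger peaks counted, 3172 or 788 promoter stretches would be PRDM-free.

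The values at the limits of the choice were as follows. The longest members were at Samd9l (2488 bases), Nr4a2 (2026) and Sftpa1 (2003). The farthest from a gene end were Gstt2 (997 bases), Foxd1 (984) and Zfp618 (978), and the nearest PRDM-free stretches just beyond the 1 kb limit lay 1012, 1021 and 1067 bases away. Atp8b5, Cspg4 and Unc13a abutted a PRDM peak without sharing a base with it. Just outside the set, 1700010I14Rik shared 1 base with a PRDM peak, Slc16a8 shared 3 and B4galt7 shared 4.

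A smaller group had long stretches over a gene start. Over an annotated start and at least 1000 bases long were 73 stretches, a group chosen after seeing the data, and all 73 had H3K4me3 in the 3 lists. The comparison here was the 6517 promoters with a PRDM peak that met the same 2 limits. Lengths still differed, with a median of 1277 bases in the 73 and 1809 in that comparison. The median H3K4me3 fold enrichment of the 73 was 14.7, 32.8 and 27.9, against 20.5, 41.96 and 34.3. This was a difference of −0.38 ± 0.09 on the log2 scale (SD, n = 3). The 73 had an NKX2-1 peak at 67.1%, 34.2% and 46.6% in replicates 1, 2 and 3, against 96.6%, 71.4% and 83.1%. The difference was −34.4 ± 4.27 points (SD, n = 3, exact sign-flip p = 0.25, lower in 3 of 3 libraries). An NKX2-1 region lay over 29 of the 73 (39.7%, against 86.3%), 13 had NKX2-1 in all 3 lists and 14 had it in none. No PRDM peak lay within 10000 bases of 25.

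The PRDM-free promoters with the best-ranked NKX2-1 peaks belonged to genes of unlike function. The 10 best of the 19 with NKX2-1 in all 3 lists were Prr36, Zmpste24, Nr4a2, Gm45871, Abcb1b, Cep72, Zfp972, Clasrp, Fam207a and Gm14440. Only Prr36, Zmpste24 and Cep72 had q under 0.05 in all 3 lists. The others had a weaker peak in at least 1 list. The −log10 q in replicate 2 was 0.412 at Nr4a2 and 0.0601 at Clasrp and Gm14440. At Prr36, a proline-rich protein, the stretch (chr8:4216142-4217715) had NKX2-1 fold enrichments of 6.08, 4.88 and 4.00 and H3K4me3 fold enrichments of 14.3, 43.4 and 37.8 in replicates 1, 2 and 3.

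Zmpste24 encodes the protease that matures prelamin A. Its stretch (chr4:121097203-121098479) had NKX2-1 at 5.97, 3.86 and 4.00 fold and H3K4me3 at 29.3, 42.3 and 30.0 fold, and the nearest PRDM peak was 56601 bases away. Nr4a2, an orphan nuclear receptor, had NKX2-1 at 7.44, 2.91 and 5.59 fold over chr2:57122546-57124571. Its H3K4me3 was 16.2, 57.03 and 76.2 fold, so replicate 1 was the low library at this promoter. Abcb1b, a drug efflux pump, had NKX2-1 at 4.07, 4.88 and 3.20 fold on a stretch of 608 bases that ended 29 bases from a PRDM peak. Cep72, a centrosomal protein, had NKX2-1 at 3.38, 4.07 and 4.79 fold, and Clasrp, a regulator of splicing, had 4.24, 2.19 and 5.59 fold.

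Strong H3K4me3 without any NKX2-1 peak occurred at promoters that included genes of general cell functions. By H3K4me3 rank the first 10 of the 179 were Zfp780b, Ppil2, Dpcd, Pola2, Fcsk, Tor1a, Pogz, Mterf4, Clns1a and Aopep. Zfp780b, a zinc finger gene, had H3K4me3 at 29.4, 34.9 and 42.1 fold over chr7:27978361-27979637. Pola2, a subunit of the DNA polymerase alpha and primase complex, had 21.0, 31.6 and 27.5 fold over chr19:5963015-5964592, 345 bases from a PRDM peak. Ppil2, a cyclophilin-type isomerase, had 14.3, 45.6 and 41.9 fold and lay 13517 bases from a PRDM peak. Tor1a, an ATPase of the endoplasmic reticulum, had 16.6, 24.98 and 27.1 fold, 136 bases from a PRDM peak. Clns1a, which takes part in snRNP assembly, had 19.7, 21.3 and 16.4 fold and lay 14192 bases from one.

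The 351 stretches named 342 genes by their nearest gene end. Genes with an end within 1 kb of a PRDM-free stretch numbered 370, or 3.25% of the 11368 genes with a promoter stretch, and 297 of them (2.61%) had no PRDM-overlapping H3K4me3 stretch of any length at either end. The gene lists below are read against 3.25% and carry no test.

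Several large housekeeping families had no member in the set. Among genes with a promoter stretch, a PRDM-free stretch was found at 0 of 75 ribosomal protein genes, 0 of 44 complex I genes (Nduf), 0 of 45 proteasome genes (Psm), 0 of 49 Eif translation factors, 0 of 50 Rab GTPases and 0 of 39 centromere and mitosis genes. DNA repair had 2 of 55 (Fancd2 and Neil3) and DNA replication 2 of 35 (Pola2 and Prim1). Mitochondrial ribosomal proteins had 2 of 74, solute carriers 7 of 203 and Tmem genes 7 of 165, which lies near the 3.25% of all genes.

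Zinc finger genes named Zfp had 25 of 311 (8.04%), and 23 of these had no PRDM-overlapping stretch at all. Many mouse Zfp genes encode KRAB zinc finger proteins, which bind retroelements and silence them and lie in clusters of young copies. Some lists written with the members known were higher still, such as 9 of 37 potassium channel genes (Kcn, 24.3%) and 30 of 217 predicted Gm genes (13.8%). Others written in that way stood at 0: 0 of 6 mesenchyme and matrix genes, 0 of 4 endothelial, 0 of 4 neuron and synapse and 0 of 5 neuroendocrine genes. Because these lists were made after the names were seen, their shares support nothing. The Kcn stretches included Kcnd2, Kcnip3 and Kcna1, named as examples after their values were seen. Kcnd2 had H3K4me3 at 10.2, 14.1 and 6.40 fold and a PRDM peak 1 base away, and Kcna1 lay 33522 bases from a PRDM peak.

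**Figure D3:**
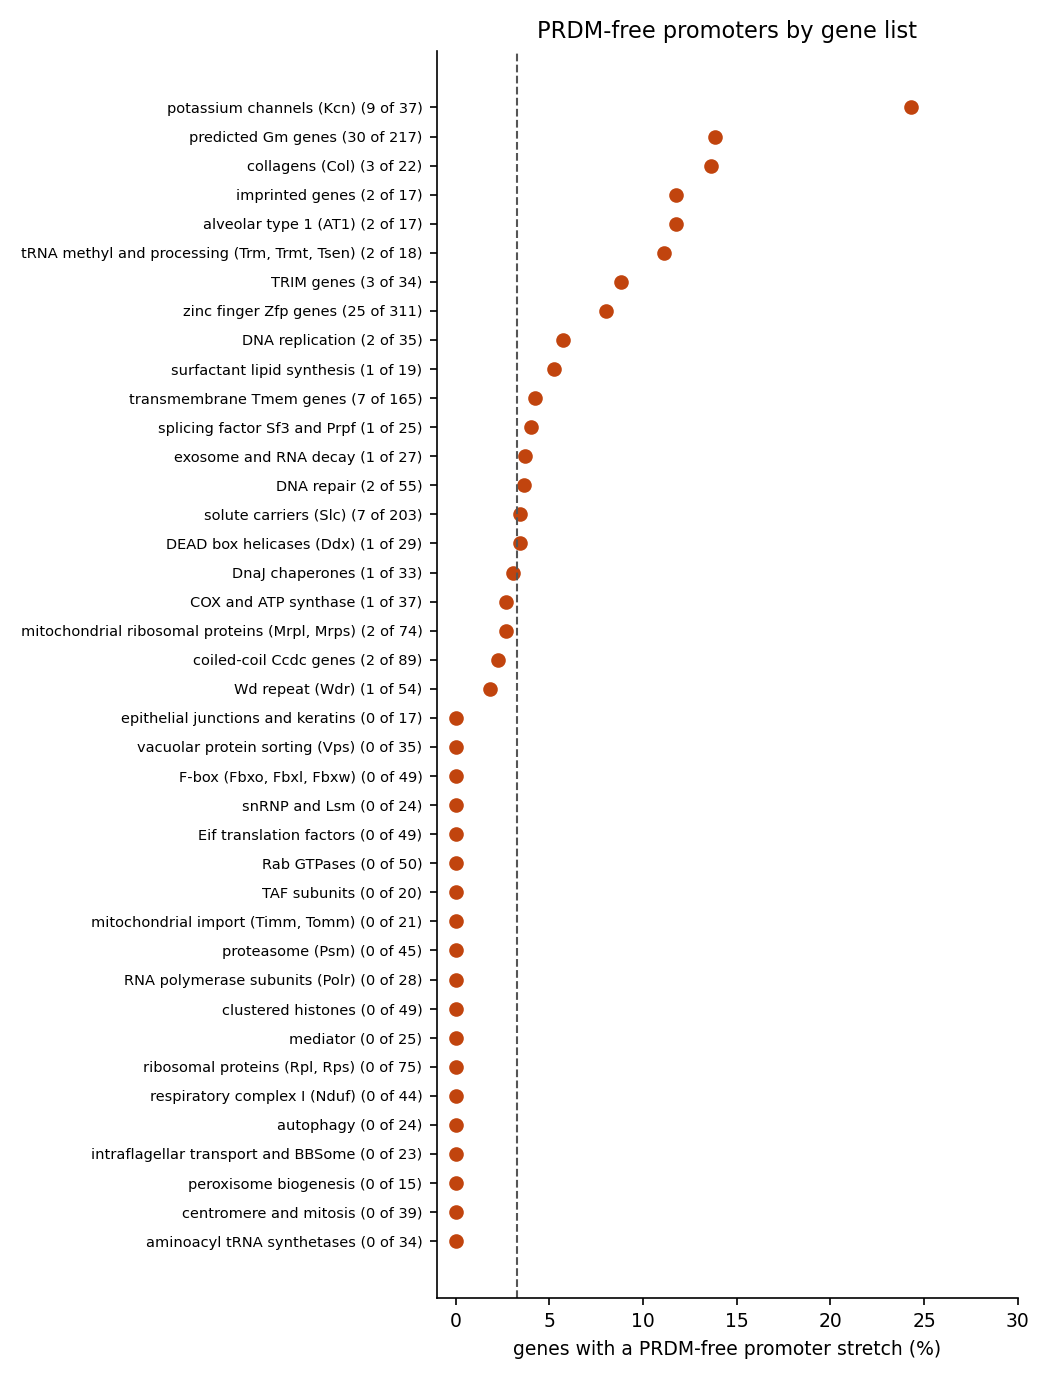
Percent of genes with a promoter stretch that had a PRDM-free one (horizontal axis), for each gene list with at least 15 such genes, with counts beside the names. The dashed line is the 3.25% of all genes, and 19 lists stand at 0.

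A few lung epithelial genes were among the members, and the lists below, small and with 1 exception written with the members known, support nothing. A PRDM-free stretch was found at 2 of 17 alveolar type 1 genes (11.8%, Hopx and Ager), 2 of 10 alveolar type 2 genes (20%, Sftpa1 and Napsa) and 3 of 9 lung epithelial transcription factors (33.3%, Hopx, Foxa3 and Ehf). It was found at 1 of 11 ciliated genes (9.09%, Foxj1), 1 of 19 genes of surfactant lipid synthesis (5.26%, Gpam) and 0 of 17 genes of epithelial junctions and keratins. Of the lung epithelial markers, the list written from the labels, 3 had a stretch under 4000 bases and 2 of these (Hopx and Ager) a PRDM-free one. Ager, Napsa, Foxj1 and Foxa3 also had a PRDM-overlapping H3K4me3 stretch at a gene end, so that 1 alveolar type 1 gene, 1 alveolar type 2 gene and no ciliated gene had PRDM-free stretches only. Sftpa1 encodes surfactant protein A, a collectin of the alveolar lining. Its stretch (chr14:41131952-41133954, 2003 bases) began 164 bases after the annotated start, had H3K4me3 at 5.71, 6.08 and 8.72 fold and no NKX2-1 peak, and lay 423 bases from a PRDM peak. Its 3 H3K4me3 values all lay below the medians of the PRDM-free set.

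Hopx, an atypical homeodomain protein of alveolar type 1 cells, was represented by a piece of 739 bases that was 13 bases from a PRDM peak and had H3K4me3 in replicates 2 (9.73 fold) and 3 (6.93 fold) only. Ager, a receptor abundant in alveolar type 1 cells, was represented at its far end, with 384 bases and H3K4me3 at 17.6, 7.91 and 6.18 fold. Gpam, which starts glycerolipid synthesis, had H3K4me3 in replicates 2 and 3 (8.02 and 9.04 fold) and an NKX2-1 peak in replicate 3 only (2.74 fold). The secretory gene Scgb3a2 and the epithelial factors Ehf and Foxa3 were represented by short pieces (368 bases at Scgb3a2, 369 at Foxa3), each with H3K4me3 in 2 lists and the last at the far end of its gene. None of these lung genes had NKX2-1 in more than 1 list. This was the usual state of the PRDM-free promoters, of which 51.0% had it in no list and 31.3% in exactly 1.

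The largest group of neighbouring PRDM-free promoters was a zinc finger gene cluster on chromosome 2. Between its first and last PRDM-free stretch (chr2:175274887-177925802) lay 23 promoter stretches, and 11 of them were PRDM-free (47.8%, against 3.42% over all promoters). They were at Gm14440, Gm2007, Gm14288, Zfp966, Gm2004, 2210418O10Rik, Gm14308, Zfp973, Gm14296, Zfp970 and Zfp972. The cluster was picked for its number of PRDM-free stretches, so its share is a description with no test.

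All 11 had an NKX2-1 peak in at least 1 library. No such peak was present at 51.0% of all PRDM-free promoters but at only 5.67% of all promoter stretches. In this count, which takes a peak in any list, the 11 lay near the share of all promoters. Some of the peaks were weak, with a −log10 q of 0.06 at Gm14440 in replicate 2 and 0.42 at Zfp972 in replicate 3. Of these 11, 5 had NKX2-1 in 1 list, 3 in 2 lists and 3 in all 3 lists. A peak in all 3 lists was present at 51.7% of all promoter stretches and 5.41% of all PRDM-free promoters. Gm14440 had NKX2-1 at 4.03, 2.19 and 4.79 fold with H3K4me3 at 16.5, 25.2 and 24.7 fold. Gm14296 had NKX2-1 at 3.03, 3.64 and 4.00 fold with H3K4me3 at 15.6, 14.2 and 11.9 fold. Zfp966 had NKX2-1 in replicate 1 only, at 6.11 fold, with H3K4me3 at 11.4, 16.4 and 14.4 fold. The lengths ran from 589 to 1378 bases.

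The PRDM peaks at the other 12 promoters of the cluster were weak. Of these 12, 11 overlapped a peak of only 1 PRDM list and 1 overlapped peaks of 2 lists. In the whole comparison 8.29% overlapped peaks of 1 PRDM list, 21.3% of 2 and 70.4% of 3. The highest PRDM −log10 q at the 12 was 3.43, and 28.5% of the whole comparison had none that reached 5. NKX2-1 was present at 10 of the 12, and in 2 or more lists at 4. In the whole comparison 4.06% had no NKX2-1 peak, 26.7% had one in exactly 2 lists and 53.3% in all 3.

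Promoters of the same sequence stood on both sides. The 250 bases before the start of Zfp966, shown above, were 100% identical to those of Zfp967, whose stretch overlapped a PRDM peak with a −log10 q of 0.981. The window of Gm14308 was likewise 100% identical to those of Gm14434 and Gm2026, which both overlapped a PRDM peak. Gm14440 and Gm14288, both PRDM-free, were 99.2% identical. Over all pairs of PRDM-free windows in the cluster the identity had a median of 73.3% (range 52.9 to 99.2%, 45 pairs, global alignment). It was 76.5% over pairs of a PRDM-free and a PRDM-overlapping window (110 pairs) and 76.8% over pairs of PRDM-overlapping windows (55 pairs). Of the 10 PRDM-free promoters there with a sequence, 9 shared at least 10% of their 31-mers with another promoter, and so did all 11 of the others with a sequence. The sources used here do not say how reads mapping to several places were treated, and the part of this in these calls was not tested.

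**Figure D4:**
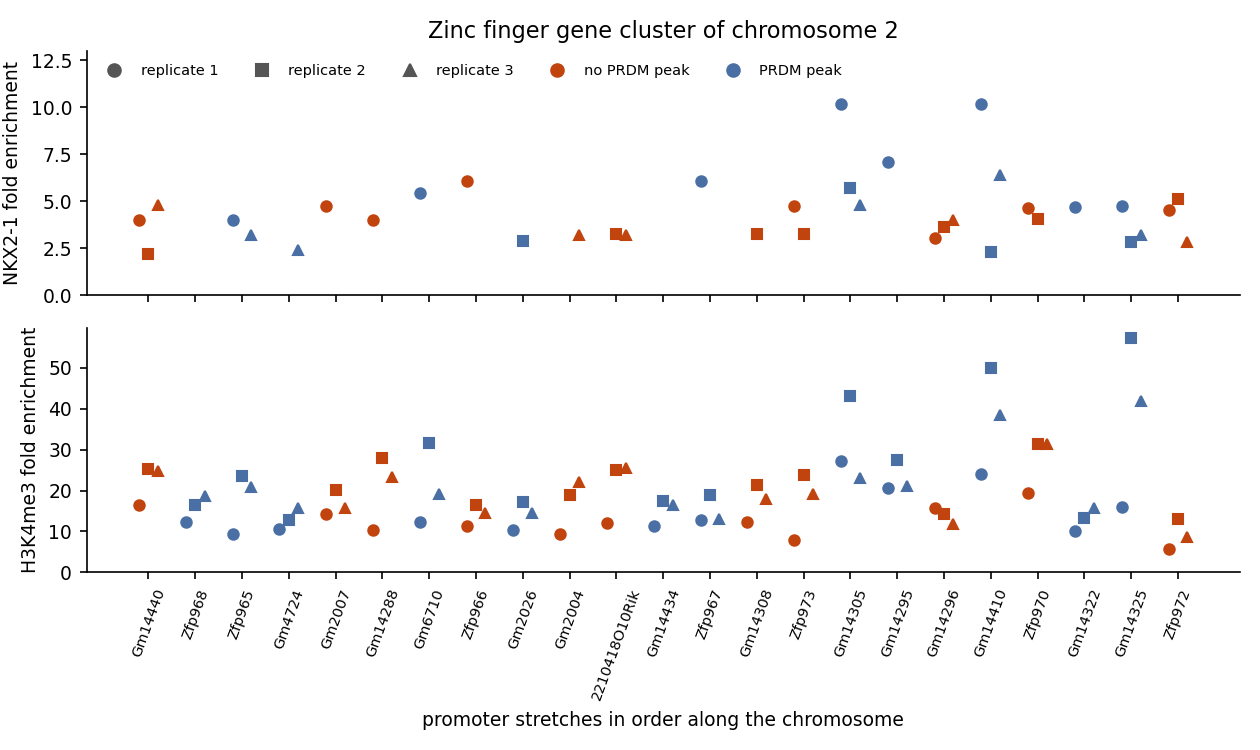
The 23 promoter stretches of the chromosome 2 cluster in order, with the NKX2-1 (top) and H3K4me3 (bottom) fold enrichment of each library (vertical axes, ratio to background, with no point where there was no peak). Promoters without a PRDM peak (11) are interspersed with those that have one (12), and H3K4me3 reaches 31.4 fold at the former and 57.2 fold at the latter.

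Across the genome, repeated promoter sequence and PRDM-free calls went together. RefSeq windows of 300 bases (250 before to 50 after the start) were matched to 250 of the 351 members and 7843 of the 9899 comparison stretches. At least 10% of the 31-mers were found at another promoter for 35 of the 250 (14.0%), against 2.04% of the comparison and 7.60% of 20062 promoters. Stretches with under 10% repeated were PRDM-free in 2.72%, those with 10 to under 50% in 13.8% (11 of 80) and those with 50% or more in 20.9% (24 of 115). Among all stretches with a window, the NKX2-1 difference was −52.2 ± 2.72 points, and among those with under 10% repeated, 215 of them PRDM-free, it was −53.0 ± 1.64 points (SD, n = 3, exact sign-flip p = 0.25 for both).

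The PRDM-free promoters were also poorer in CpG. The median ratio of observed to expected CpG was 0.613, against 0.800 in the comparison and 0.585 over all 20062 promoters. It was 0.704 in the comparison weighted to the same length classes, within which lengths still differed. PRDM-free stretches made up 15.0% of those with a ratio under 0.25 and then 6.79%, 3.99%, 1.60% and 1.21% with rising ratio. The median GC content was 58.7%, against 62.7%, and 57% over all promoters.

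**Figure D5:**
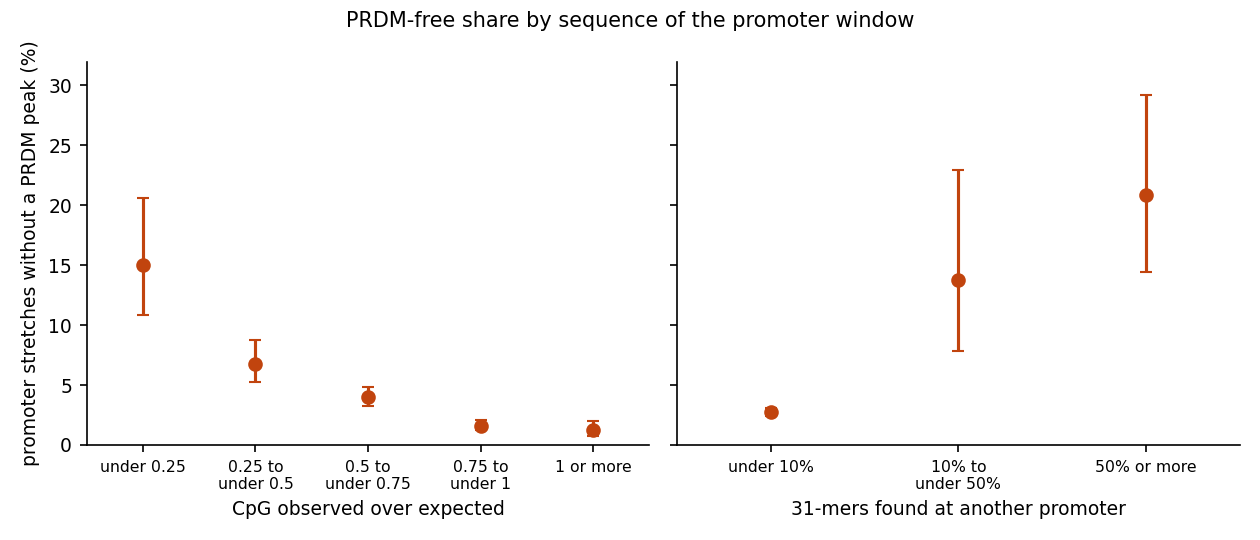
Percent of promoter stretches without a PRDM peak (vertical axis) by the CpG ratio of the promoter window (left) and by the share of its 31-mers found at another promoter (right). Bars are Wilson 95% intervals (counting error only), and the share runs from 15.0% to 1.21% on the left and from 2.72% to 20.9% on the right.

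Motif content differed for some motifs and little for others. Motifs were searched on both strands of the 300 bases, and overlaps between motifs were allowed. The comparison at the same length was weighted by length class and not matched within a class. GGGCGG was present in 58.4% of the PRDM-free windows, 71.0% of the comparison, 65.1% of the comparison at the same length and 47.0% of all promoters. TGACG was present in 16.8%, 32.9%, 27.6% and 23.9% in the same order, and the NRF1 motif in 5.6%, 10.8%, 8.06% and 6.54%. The ETS sequence CCGGAAG was present in 16.4% of the PRDM-free windows, 19.1% of the comparison, 15.4% of the comparison at the same length and 11.9% of all promoters. GATAA was present in 16.8%, 12.99%, 15.6% and 22.3% in the same order. The NKX2 core CACTT was present in 42% of the PRDM-free windows, 40.6% of the comparison, 42.1% of the comparison at the same length and 45.0% of all promoters. Its longer form CACTTGA was in 1.2%, 1.57%, 2.08% and 2.94% in the same order. GACAAGATA, a motif known for the PRDM3 zinc fingers, was in 0 of 250 and in 2 of 7843 comparison windows.

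Other places with several PRDM-free promoters were smaller. A run on chromosome 13 (chr13:62015498-62965563) had 4 of 7 promoter stretches PRDM-free (57.1%), including Gm3325 and the zinc finger gene Zfp808. A run on chromosome 10 (chr10:33950297-34298323) also had 4 of 7, with Zup1, a ubiquitin protease gene, and Tspyl1. A run on chromosome 14 (chr14:25902354-26182289) had 4 of 10, at Plac9a and Plac9b, and all 4 had repeated promoter sequence. The imprinted genes Ndn and Mkrn3 on chromosome 7 were members, with H3K4me3 at 5.71, 6.08 and 8.24 fold and 6.73, 12.1 and 15.1 fold and each with NKX2-1 in 1 list.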

How the data were processed

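Peak lists of 9 CUT&RUN samples were analysed, with groups and replicate numbers from the labels. Trimmomatic, Bowtie2, MACS2, HOMER and mm10 are named, without versions, in the submitters' processing notes; MACS2 settings and controls are not given in the sources used here. Each list is deposited per sample. The deposited fold enrichment (a ratio to background), −log10 p, −log10 q and score are the authors' values. From the values, factor lists include many peaks of low confidence: q was under 0.05 for 10.98% to 76.4% of the peaks in them, against 100% in the H3K4me3 lists. Read depth is unknown.

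Stretches of at least 20 bases covered in 2 of 3 H3K4me3 lists were computed, overlap meant at least 1 shared base, and gene ends, names and promoter sequences came from RefSeq (GRCm38.p6, the assembly of mm10). Strand was known for 16456 of 20661 genes. A stretch's enrichment was that of its highest peak, which can reach beyond the stretch. NKX2-1 shares were compared within each library, with exact sign-flip tests over the 3 differences. Wilson 95% intervals cover counting error only.

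The members and gene lists were chosen with earlier results of these data known. Named genes were the 10 best by NKX2-1 rank with all 3 lists, the 10 best by H3K4me3 rank without NKX2-1, list genes, and the 3 nearest each limit; genes of the clusters and Kcn examples were chosen after their values were seen. Some results are not reported here. The tests were tested on simulated data. Python 3.11.15, numpy 2.4.6, pandas 2.3.3, scipy 1.17.1 and matplotlib 3.10.9 were used, with Biopython 1.88 for alignment.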

Additional observations from a re-analysis of the deposited data

Results flagged for a closer look

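Chromosome X was left out of the promoter set above. Counted in the same way, 33 of its 352 promoter stretches had no PRDM peak, or 9.38% (Wilson 95% interval 6.75 to 12.9%, counting error only), against 3.42% on chromosomes 1 to 19, and this was a signal outside the main measurement. Single autosomes ranged from 1.70% (chromosome 9) to 5% (chromosome 15). The difference was not tested, and the sex of the fetuses is not stated in the labels.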

How the results depend on the processing

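The NKX2-1 difference and the H3K4me3 difference were negative under every alternative run. The NKX2-1 difference ranged from −54.8 to −42.4 points with single libraries left out, was −28.6 points with only PRDM peaks whose −log10 q reached 5, and was −22.8 ± 28.2 points (SD, n = 3) with only such NKX2-1 peaks. The H3K4me3 difference ranged from −1.55 to −1.07 (log2) with single libraries left out, and was smaller with only PRDM peaks whose −log10 q reached 5 (−0.48) and for stretches of 1000 bases or more over a start (−0.38).

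The number of PRDM-free promoters depended on the PRDM lists. It ranged from 266 to 855 (2.68 to 8.34%) with single libraries left out, highest without PRDM16 replicate 1 and 592 (5.78%) without PRDM16 replicate 2. It was 3172 (30.9%) with PRDM peaks whose −log10 q reached 5 and 788 (7.69%) with PRDM q under 0.05. The share was 4.54% when overlap meant 50% of the shorter interval, 2.32% with no PRDM peak within 500 bases, 2.63% with H3K4me3 in all 3 lists and 4.93% for stretches under 2000 bases. Among alternatives chosen after seeing the data, it was 73 (1.11%) for stretches of 1000 bases or more over a start, 250 (3.09%) for stretches with a RefSeq promoter window, 215 (2.72%) for those of them with under 10% repeated sequence, and 2.95% without stretches beside another. The share of PRDM-free promoters over an NKX2-1 region ranged from 5.70 to 27.95% with single libraries left out. It was 50.4% and 26.1% with the stricter and looser PRDM q, 0% and 5.41% with the same limits on NKX2-1 peaks, 6.55% with the 20000 strongest NKX2-1 peaks and 19.2% with H3K4me3 in all 3 lists. The cause of these changes was not tested. No paired analysis was possible because replicate numbers link no samples across the groups compared: both sets of stretches were measured in the same libraries, and every difference above was already taken within a library. Read depth is unknown, so a missing peak may lie below detection.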
